A study of Mus musculus with 24 samples.

Results

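The transcripts described here come from 10 mouse genes: the early growth response factors Egr1, Egr2 and Egr3, their corepressors Nab1 and Nab2, the cytoskeletal gene Arc, the membrane protein gene Apold1, and the immediate early response genes Ier2, Ier3 and Ier5. They were selected from a list of gene symbols and are 10 of the 54838 gene identifiers in the deposited count table. The list was drawn up with earlier results of these libraries known, and which values chose its members is not stated. The LPS, nanotube and control libraries were treated as used by the choice, so levels and fold changes among them are given as a description, with no p-value. Counts of called genes among them are given beside the share over all genes, and nothing is read from those counts. P-values are given only for the dyes and the virus, and whether results of those groups also entered the choice is not known. Of the 10 genes, 9 passed the filter on low counts. Egr1 did not. Each of the 9 was well above the filter in every group, with a lowest level in any library of 6.76 CPM (counts scaled to a common library total) for Arc.

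Immediate early genes are transcribed soon after a stimulus from factors already present in the cell, without new protein synthesis. Serum response factor (SRF) and its ERK-phosphorylated partners bind CArG boxes in many of their promoters, and cyclic AMP, AP-1 or NF-kB signalling acts on others. EGR proteins are zinc-finger transcription factors that bind GC-rich sites, and Nab2, itself induced by EGR proteins, binds them and represses their targets as a feedback. In macrophages and microglia, members of this class of genes are early markers of activation.

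Poly-A RNA was measured in SIM-A9 cells, a spontaneously immortalised mouse microglial line, in 8 groups of 3 libraries. Cells stood in 270 uL of serum-free medium, received 30 uL of a 10x preparation, and were lysed 2 h later. The groups were untreated control, LPS (bacterial lipopolysaccharide, the positive control for inflammation), (GT)6 SWCNT (single-walled carbon nanotubes carrying short single-stranded DNA of GT repeats), COOH SWCNT (carboxylated nanotubes), the calcium dye Fura-2, the voltage-sensitive dyes DiBASC2 and Di2ANEQPEQ, and AAV (adeno-associated virus). All groups share the line, the serum-free medium and the single time point, and what the control wells received in place of a preparation is not given in the sources used here, nor are the doses or the AAV serotype. The dye names follow the sample titles. Other labels spell them Di-BASC with a trailing number that differs between the libraries, DiSBAC2, Di2ANEPEQ and Di-2-ANEQEQ.

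The libraries held between 17364272 and 29259221 counts each. The labels do not say that replicates came from separate cultures, so p-values measure only the spread between these libraries, which may be technical. Of 12 microglial markers, all 12 had a mean of at least 1 CPM, although P2ry12 and Tmem119 were low at 2.28 and 3.79 CPM. None of 6 neuronal, 0 of 5 astrocyte and 0 of 5 fibroblast markers reached 1 CPM, and 1 of 5 oligodendrocyte and 1 of 5 endothelial markers did. In bulk RNA, a lower level in every cell and the same level in fewer cells cannot be told apart.

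Promoter sequence is shown first for Egr2 and Ier3, picked with their opposite orders of LPS and nanotube levels known. A link between motifs and levels was not tested. RefSeq promoter windows on GRCm38.p6 were held for 6 of the 10 genes: Egr2, Nab1, Nab2, Apold1, Ier3 and Ier5. The 250 bases before each annotated start were searched on both strands for 5 motifs. These were the CArG box bound by SRF, the EGR site GCGNGGGCG, the cyclic AMP element TGACGTCA, the AP-1 site TGANTCA and the NF-kB site. Of the 32851 windows of that length in the table, 1.47% held a CArG box, 4.7% GCGNGGGCG, 1.55% TGACGTCA, 6.75% TGANTCA and 3.9% an NF-kB site. Of the 5 Egr2 windows in the table, 2 on the plus strand follow, chr10:67537316-67537565 and chr10:67537619-67537868. With them come the first 221 of the 250 bases of the Ier3 window, also on the plus strand, chr17:35821463-35821683. The last 29 bases of the Ier3 window are exonic and are not shown. All printed stretches lie outside annotated exons. Capitals mark the CArG box, 63 to 72 bases upstream of the RefSeq start in both Egr2 windows, and the NF-kB site of Ier3. That site lies 83 to 92 bases upstream of the RefSeq start of Ier3, counted with the 29 bases not shown.
Egr2 upstream window: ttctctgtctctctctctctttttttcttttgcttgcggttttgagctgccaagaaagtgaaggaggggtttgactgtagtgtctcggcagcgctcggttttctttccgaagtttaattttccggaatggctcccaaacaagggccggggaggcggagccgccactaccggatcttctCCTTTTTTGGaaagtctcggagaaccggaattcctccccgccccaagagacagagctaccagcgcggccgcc
Egr2 downstream window: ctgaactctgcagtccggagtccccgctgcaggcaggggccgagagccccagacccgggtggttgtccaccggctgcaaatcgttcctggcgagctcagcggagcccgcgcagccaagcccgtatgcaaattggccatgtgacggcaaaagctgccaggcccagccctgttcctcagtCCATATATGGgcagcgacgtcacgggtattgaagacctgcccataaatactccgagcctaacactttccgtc
Ier3: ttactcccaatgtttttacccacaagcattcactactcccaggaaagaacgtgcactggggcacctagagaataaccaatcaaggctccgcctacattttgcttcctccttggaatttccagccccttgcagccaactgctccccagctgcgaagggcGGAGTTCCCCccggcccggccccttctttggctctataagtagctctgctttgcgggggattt
A match is a description of these letters and not a bound site. Of the other Egr2 windows, 2 overlapped the downstream one and held the same CArG box, and the most upstream held none of the 5 motifs. The Nab1 window held GCGNGGGCG at 3 positions and 1 NF-kB site, but 231 of its 250 bases lie in annotated exons. The Nab2, Apold1 and Ier5 windows held none of the 5 motifs. All 250 bases of the Apold1 window and 60 of the Nab2 window are exonic, and none of the Ier5 window.

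**Figure D1:**
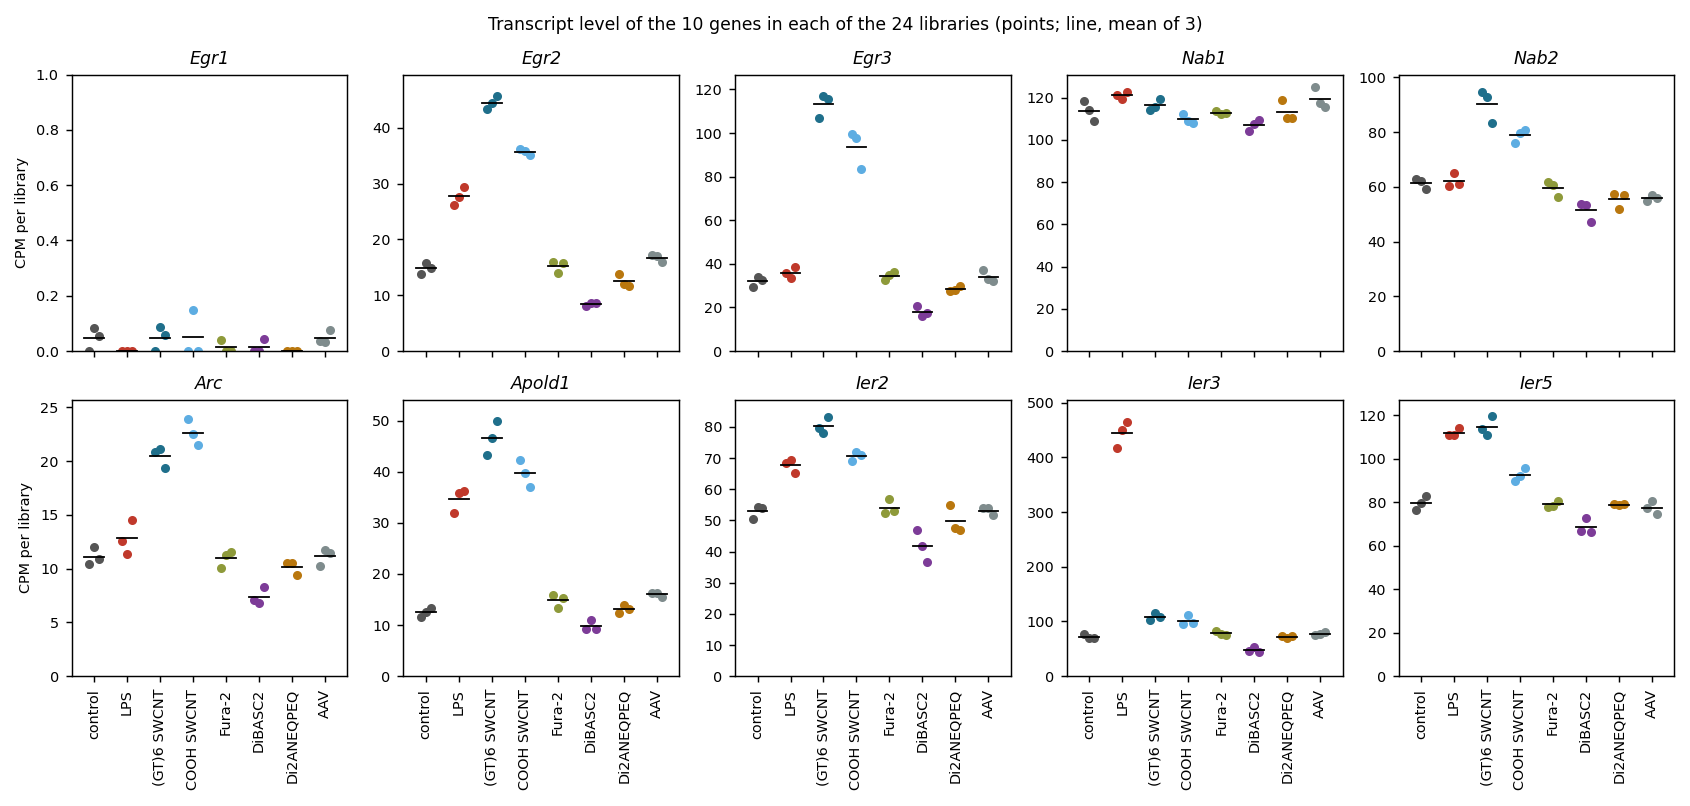
Level of each of the 10 genes in CPM (y axis, from 0, scaled separately per gene) in each library (points, 3 per group), with the group mean as a line. Egr2, Egr3, Nab2, Arc, Apold1, Ier2 and Ier5 had their highest mean with a nanotube, for Ier5 with overlap with LPS. Ier3 was highest with LPS, and most of the genes were lowest with DiBASC2.

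Egr1, the best known immediate early factor of the family, was near absent. All 10 genes are protein-coding, and positions are those of GENCODE models on GRCm38. Egr1 (chr18:34859823-34864984) collected 15 counts over all 24 libraries, at most 3 in a library, and 14 libraries had 0. This is at or under the floor of 3 counts that a count of 0 allows, so no fold change is given, and LPS and Di2ANEQPEQ libraries had no Egr1 count.

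Egr2 (chr10:67535475-67542188), a zinc-finger factor with roles in myelination and in lymphoid and myeloid cells, was higher with LPS and higher still with nanotubes. It was at 13.8, 15.9 and 14.9 CPM in the 3 control libraries and at 26.2, 27.6 and 29.5 CPM with LPS. It was at 43.3, 44.4 and 45.8 CPM with (GT)6 SWCNT and at 36.2, 35.8 and 35.1 CPM with COOH SWCNT. The 4 groups did not overlap and were ordered (GT)6 SWCNT, COOH SWCNT, LPS, control. The log2 fold change against control was 0.90 ± 0.07 (SE) with LPS, 1.58 ± 0.07 with (GT)6 SWCNT and 1.26 ± 0.07 with COOH SWCNT. With DiBASC2 Egr2 was at 8.02, 8.55 and 8.64 CPM, the lowest of the 8 groups and below every control library.

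Egr3 (chr14:70077203-70082614), a close relative of Egr2 that shares its DNA site, was highest in the nanotube groups. It was at 29.3, 34.04 and 32.7 CPM in control and at 35.6, 33.7 and 38.4 CPM with LPS, and these ranges overlapped. It was at 107, 117 and 116 CPM with (GT)6 SWCNT and at 99.5, 97.6 and 83.3 CPM with COOH SWCNT. Every nanotube library was thus well above every LPS library. The log2 fold change against control was 1.82 ± 0.07 with (GT)6 SWCNT, 1.54 ± 0.07 with COOH SWCNT and 0.16 ± 0.08 with LPS. With DiBASC2 Egr3 was at 20.5, 15.98 and 17.5 CPM, below every library of the other groups.

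The 2 corepressors differed from each other. Nab1 (chr1:52457294-52500679) was nearly flat, with group means from 107 CPM with DiBASC2 to 121 CPM with LPS. Nab2 (chr10:127660918-127668568) was at 63.0, 62.2 and 59.1 CPM in control and at 60.2, 65.0 and 61.2 CPM with LPS. It was at 94.8, 92.9 and 83.4 CPM with (GT)6 SWCNT and at 76.1, 79.6 and 80.7 CPM with COOH SWCNT. LPS and control overlapped, and all 6 nanotube libraries were above them. The log2 fold change of Nab2 against control was 0.56 ± 0.05 with (GT)6 SWCNT, 0.36 ± 0.05 with COOH SWCNT and 0.02 ± 0.05 with LPS.

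Nab2 is uncertain in 1 respect. Its exons overlap exons on the other strand of Stat6 by 40 bases, of Nemp1 by 151 bases and of the antisense gene Gm16229 by 1050 bases, and whether the counting used strand is not given in the sources used here. Without strand, reads of these genes cannot be told apart there. Stat6 had log2 fold changes of 0.09 ± 0.04 with (GT)6 SWCNT and 0.22 ± 0.04 with COOH SWCNT, and Nemp1 of -0.06 ± 0.07 and 0.11 ± 0.07. Gm16229 had a mean of 0.166 CPM in control.

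Arc (chr15:74669083-74672570), which encodes a capsid-forming protein best known from synapses of stimulated neurons, was a nanotube-high gene in these cells. It was at 10.4, 12.04 and 10.9 CPM in control and at 12.6, 11.3 and 14.5 CPM with LPS, which overlapped. It was at 20.9, 21.1 and 19.4 CPM with (GT)6 SWCNT and at 23.9, 22.5 and 21.5 CPM with COOH SWCNT. Arc was the only one of the 9 genes with a higher mean in COOH SWCNT than in (GT)6 SWCNT, and those 2 groups did not overlap. The log2 fold change against control was 0.88 ± 0.09 with (GT)6 SWCNT, 1.02 ± 0.09 with COOH SWCNT and 0.20 ± 0.10 with LPS. These levels rest on 189 to 629 reads per library in the 4 groups. Of the neuronal markers, Syt1, Stmn2 and Nefl had a count of 0 in all libraries, and the 6 markers summed to at most 0.298 CPM in any control library and 0.200 CPM in any nanotube library.

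Apold1 (chr6:134981718-134986836), described as an early response gene of endothelium, had large fold changes with LPS and with both nanotubes. It was at 11.6, 12.5 and 13.4 CPM in control and at 32.01, 35.7 and 36.2 CPM with LPS. It was at 43.2, 46.6 and 49.98 CPM with (GT)6 SWCNT and at 42.3, 39.8 and 37.0 CPM with COOH SWCNT. No LPS or nanotube library overlapped control, and every nanotube library was above every LPS library. The log2 fold change against control was 1.47 ± 0.08 with LPS, 1.89 ± 0.08 with (GT)6 SWCNT and 1.67 ± 0.08 with COOH SWCNT.

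The summed level of the endothelial markers moved in part with Apold1, though its LPS range overlapped control. The 5 markers summed to 172 to 183 CPM in control, 177 to 195 CPM with LPS, 216 to 239 CPM with (GT)6 SWCNT, 202 to 214 CPM with COOH SWCNT and 159 to 175 CPM with DiBASC2. Nearly all of that was Flt1, a VEGF receptor, with a mean of 190 CPM over all libraries. Cldn5, a defining endothelial gene, had a count of 0 in every library, and Pecam1 and Cdh5 had at most 0.452 and 0.387 CPM in any library. The part of the Flt1 levels in the Apold1 result was not tested.

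Ier3 (chr17:35821684-35822923), a stress and NF-kB response gene also known as IEX-1, had the opposite order to the EGR factors. It was at 77.9, 69.4 and 68.9 CPM in control and at 417, 449 and 465 CPM with LPS. It was at 103, 115 and 107 CPM with (GT)6 SWCNT and at 95.9, 111 and 97.9 CPM with COOH SWCNT. The nanotube groups overlapped each other, lay above control and lay far below LPS. The log2 fold change against control was 2.62 ± 0.06 with LPS, the largest of the 9 genes in any group, and 0.59 ± 0.06 and 0.50 ± 0.06 with (GT)6 SWCNT and COOH SWCNT.

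Ier2 (chr8:84661331-84662852), a nuclear protein of the same early response class, was moderately higher in all 3 treatments. It was at 50.6, 54.4 and 54.1 CPM in control, at 68.4, 69.3 and 65.3 CPM with LPS and at 79.6, 78.1 and 83.0 CPM with (GT)6 SWCNT. With COOH SWCNT it was at 69.0, 71.8 and 71.1 CPM, overlapping LPS. Ier5 (chr1:155096361-155099636), a relative of Ier2 that acts with heat shock factor 1, was at 76.4, 79.5 and 82.7 CPM in control. It was at 111, 111 and 114 CPM with LPS and at 113, 111 and 120 CPM with (GT)6 SWCNT, which overlapped, and at 89.8, 92.1 and 95.9 CPM with COOH SWCNT. Ier5 was thus about as high with (GT)6 SWCNT as with LPS in these libraries, and lower with COOH SWCNT.

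Per kilobase of exon, which allows levels to be compared between genes, Ier3 was the most abundant of the genes in control at 63.7 ± 4.44 CPM per kb (SD, n = 3). Ier2 followed at 34.8 ± 1.41, then Nab1 at 27.8 ± 1.17, Ier5 at 24.3 ± 0.951 and Nab2 at 20.9 ± 0.702 CPM per kb. Egr3 stood at 7.27 ± 0.549, Egr2 at 4.37 ± 0.306, Arc at 3.63 ± 0.278 and Apold1 at 3.50 ± 0.254 CPM per kb. The genes that were low in control were those with the larger nanotube fold changes. With (GT)6 SWCNT, Egr3 reached 25.7 ± 1.26 CPM per kb, close to the 28.4 ± 0.674 CPM per kb of Nab1, while Arc at 6.69 ± 0.303 CPM per kb was still the least abundant of the 9.

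**Figure D2:**
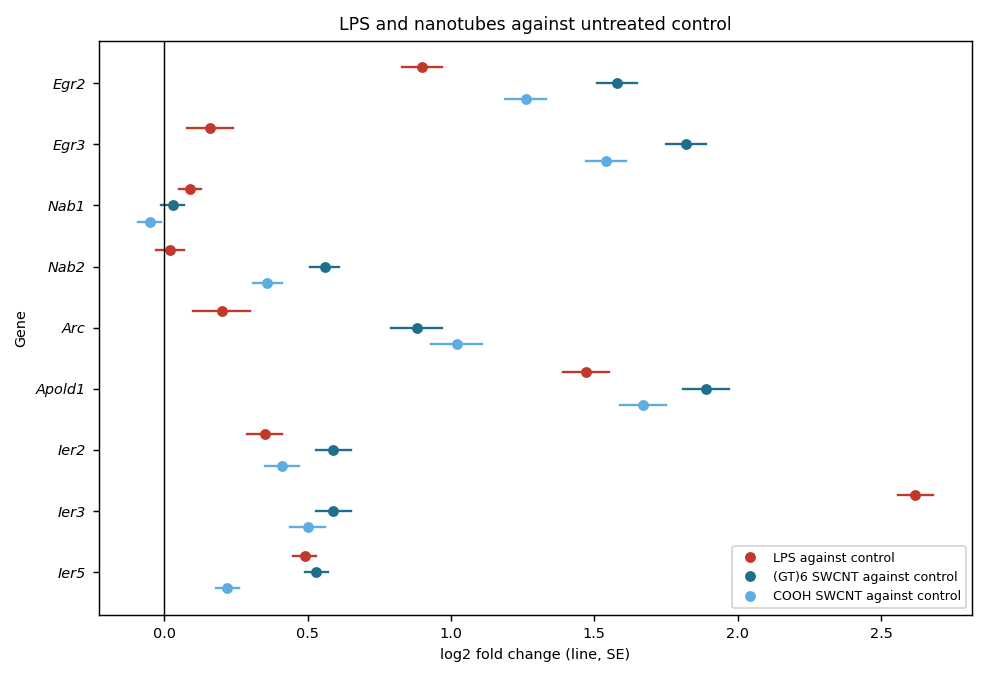
log2 fold change against untreated control (x axis) of the 9 genes (y axis) with LPS, (GT)6 SWCNT and COOH SWCNT, with the SE as a line. Egr2, Egr3, Nab2, Arc, Apold1 and, by less, Ier2 lay farther to the right with both nanotubes than with LPS, and Ier3 lay at 2.62 with LPS.

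Over the 9 genes, 5 were called with LPS against control at an adjusted p under 0.05, all of them higher: Egr2, Apold1, Ier2, Ier3 and Ier5. Of all 13116 genes tested, 28.3% were called, 13.8% as higher. With (GT)6 SWCNT 8 of 9 were called, all higher, where 20.4% of all genes were called and 9.9% as higher. With COOH SWCNT 8 of 9 were called, all higher, where 20.0% of all genes were called and 9.39% as higher. Nab1 was the gene not called in either nanotube group. The median log2 fold change of the 9 was 0.35 with LPS, 0.59 with (GT)6 SWCNT and 0.50 with COOH SWCNT, against -0.01, -0.02 and 0.00 over all genes. The LPS comparison gained a call without control replicate 1 (Nab1, 0.13) or LPS replicate 2 (Arc, 0.29). These groups were treated as used to choose the list, the 3 comparisons share the control libraries, and nothing is read from the counts.

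**Figure D3:**
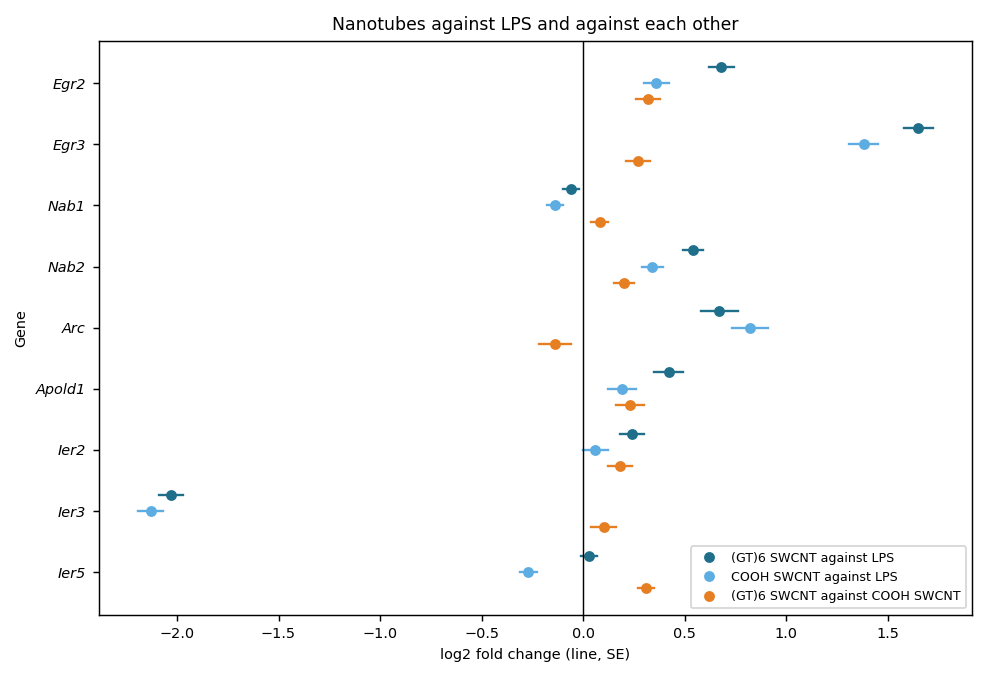
log2 fold change (x axis, line the SE) of the 9 genes (y axis) for each nanotube against LPS and for (GT)6 SWCNT against COOH SWCNT. Egr3 lay at 1.65 and 1.38 against LPS and Ier3 at -2.03 and -2.13, while the differences between the nanotubes lay between -0.14 and 0.32.

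Set directly against LPS, (GT)6 SWCNT gave higher levels of Egr2, Egr3, Nab2, Arc, Apold1 and Ier2 and lower levels of Ier3. The log2 difference was 1.65 ± 0.07 for Egr3, 0.68 ± 0.06 for Egr2, 0.67 ± 0.09 for Arc, 0.54 ± 0.05 for Nab2, 0.42 ± 0.07 for Apold1 and 0.24 ± 0.06 for Ier2. For Ier3 it was -2.03 ± 0.06, and for Nab1 and Ier5 it was -0.06 ± 0.04 and 0.03 ± 0.04. Of the 9 genes 7 were called, 6 higher and 1 lower, where 21.6% of all genes were called, 9.63% as higher and 11.9% as lower. Nothing is read from that count.

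COOH SWCNT against LPS gave a like picture with smaller differences for most genes. The log2 difference was 1.38 ± 0.07 for Egr3, 0.82 ± 0.09 for Arc, 0.36 ± 0.06 for Egr2, 0.34 ± 0.05 for Nab2 and 0.19 ± 0.07 for Apold1. It was -2.13 ± 0.06 for Ier3, -0.27 ± 0.04 for Ier5 and -0.14 ± 0.04 for Nab1, and Ier2 stood at 0.06 ± 0.06. Of the 9 genes 8 were called, 5 higher and 3 lower, where 37.8% of all genes were called, 18.1% as higher and 19.7% as lower. The Apold1 call was lost without COOH SWCNT replicate 1 (0.14) or 2 (0.18) or LPS replicate 1 (0.14). With upper-quartile scaling Nab1 stood at -0.09 and was not called. Both comparisons share the LPS libraries, and nothing is read from the count of called genes.

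Between the nanotubes, 6 of 9 genes were called, all higher with (GT)6 SWCNT, where 21.4% of all genes were called and 11.9% as higher. The log2 difference was 0.32 ± 0.06 for Egr2, 0.31 ± 0.04 for Ier5, 0.27 ± 0.06 for Egr3, 0.23 ± 0.07 for Apold1, 0.20 ± 0.05 for Nab2 and 0.18 ± 0.06 for Ier2. Arc stood at -0.14 ± 0.08, with no overlap between the libraries, Ier3 at 0.10 ± 0.06 and Nab1 at 0.08 ± 0.04. The Apold1 call was lost without replicate 3 of either nanotube (0.18 in both), and the Ier2 call without COOH SWCNT replicate 1 or (GT)6 SWCNT replicate 3 (0.17 in both), while Ier3 was called at 0.18 without COOH SWCNT replicate 2. These differences were small beside those between either nanotube and LPS for Egr3 and Ier3. Both nanotube groups were treated as used to choose the list, and nothing is read from the count of called genes.

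**Figure D4:**
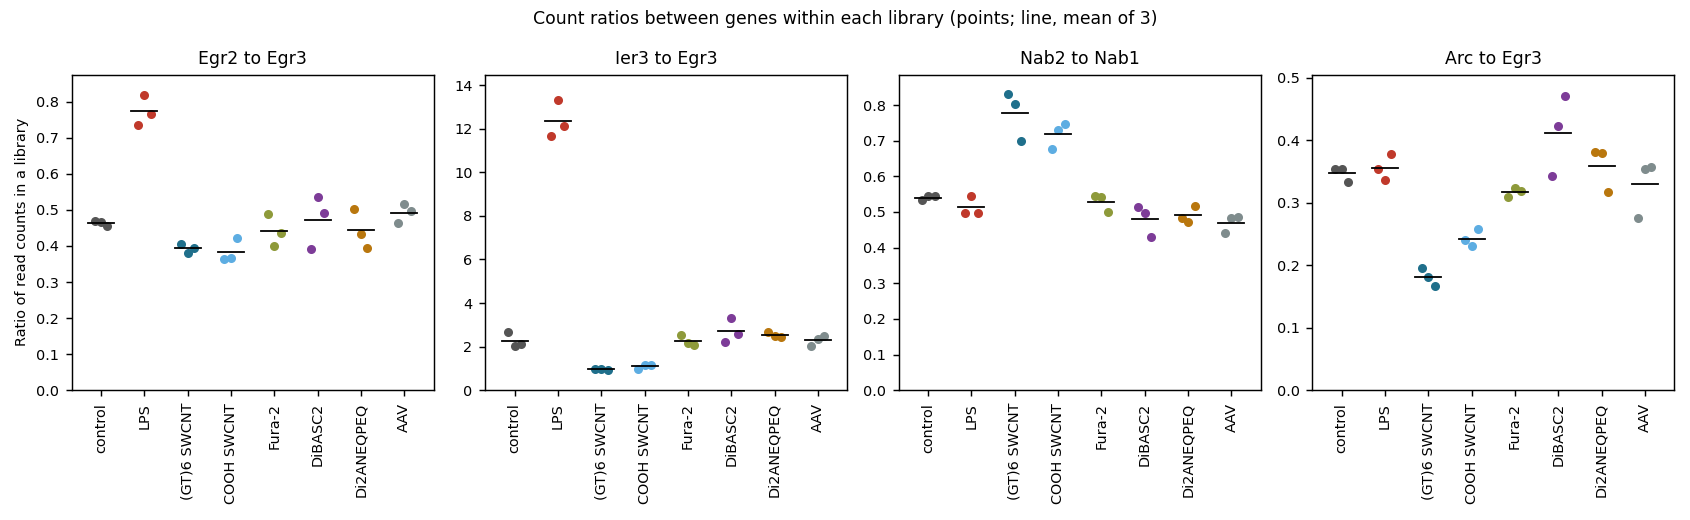
Ratio of the read counts of 2 genes within the same library (y axis, from 0) for 4 pairs of genes, as points for the 3 libraries of each group with the mean as a line. The mean Ier3 to Egr3 ratio was 12.4 with LPS against 0.959 and 1.09 with nanotubes, and the Nab2 to Nab1 ratio was at least 0.677 in the nanotube libraries and at most 0.544 in all others.

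A ratio of counts within a library does not depend on the scaling between libraries. The ratio of Ier3 to Egr3 was 2.27 ± 0.336 (SD, n = 3) in control, 12.4 ± 0.844 with LPS, 0.959 ± 0.029 with (GT)6 SWCNT and 1.09 ± 0.113 with COOH SWCNT. For this pair LPS stood above control and both nanotubes below it. The pairs were picked with the levels of the genes known, so these ratios restate those levels and are not a separate result. The ratio of Egr2 to Egr3 was 0.464 ± 0.007 in control, 0.774 ± 0.042 with LPS, 0.394 ± 0.013 with (GT)6 SWCNT and 0.384 ± 0.032 with COOH SWCNT. Egr2 was thus higher relative to Egr3 with LPS and lower with nanotubes. The ratio of Nab2 to Nab1 was 0.540 in control and 0.513 with LPS, and 0.778 and 0.718 with (GT)6 SWCNT and COOH SWCNT. The ratio of Arc to Egr3 was 0.347 in control, 0.356 with LPS, 0.181 with (GT)6 SWCNT and 0.243 with COOH SWCNT.

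**Figure D5:**
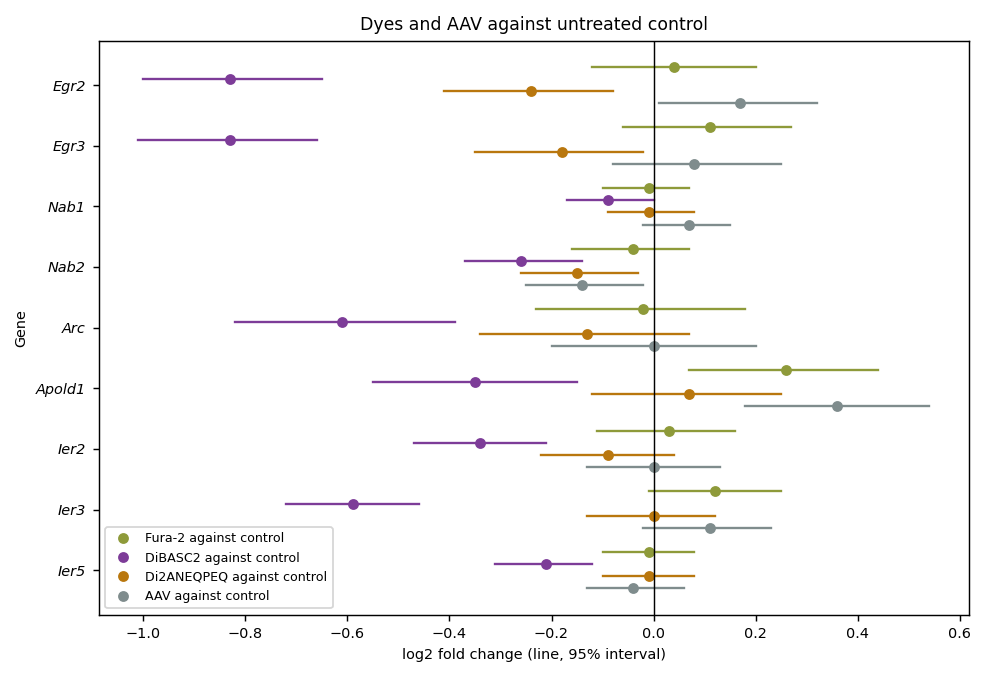
log2 fold change against untreated control (x axis, line the 95% interval) of the 9 genes (y axis) for Fura-2, DiBASC2, Di2ANEQPEQ and AAV. The DiBASC2 points lay left of 0 for all 9 genes, from -0.83 to -0.09, and the other points lay between -0.24 and 0.36.

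DiBASC2 was the only one of the 3 dyes and AAV with more than 1 called gene, and all calls were lower than control. Egr2 fell by 0.83 ± 0.08 on the log2 scale (edgeR quasi-likelihood test with Benjamini-Hochberg adjustment over all genes, adjusted p = 7.65e-09) to 0.564 of its control level. Egr3 fell by 0.83 ± 0.08 (edgeR adjusted p = 8.1e-09), and all 3 libraries of both genes were below control. Arc fell by 0.61 ± 0.10 (edgeR adjusted p = 0.000118), from 10.4, 12.04 and 10.9 to 7.05, 6.76 and 8.26 CPM. Ier3 fell by 0.59 ± 0.06 (edgeR adjusted p = 2.42e-08), from 77.9, 69.4 and 68.9 to 45.8, 52.6 and 44.97 CPM. Ier2, Nab2 and Ier5 had smaller changes of -0.34 ± 0.06, -0.26 ± 0.05 and -0.21 ± 0.04 (edgeR adjusted p = 0.000451, 0.00247 and 0.0018). Apold1 fell by 0.35 ± 0.09 (edgeR adjusted p = 0.0185), and Nab1 stood at -0.09 ± 0.04 (edgeR adjusted p = 0.237).

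In all, 8 of 9 genes were called lower with DiBASC2, where 5.47% of the 13116 genes were called, 3.64% as lower. The same 8 had all 3 libraries below control, as did 1572 of the 13116 genes. The libraries of 22.6% of all genes did not overlap control in either direction. The median log2 fold change of the 9 was -0.35, against 0.00 over all genes. The Apold1 call was lost without control replicate 2 or 3 or DiBASC2 replicate 1 or 3, with edgeR adjusted p of 0.0608, 0.11, 0.0784 and 0.101. The other 7 calls held without any 1 library, while the 717 calls over all genes became 333 without control replicate 1 and 459 without DiBASC2 replicate 3.

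Fura-2 had no called gene of the 9, where 0.252% of all genes were called. At an unadjusted p under 0.05 edgeR gave 1 gene, Apold1 at 0.26 ± 0.09 (adjusted p = 0.248), and the DESeq2 test called none. The 95% intervals of the log2 fold change were -0.12 to 0.20 for Egr2, -0.06 to 0.27 for Egr3 and -0.23 to 0.18 for Arc. Increases of the size seen with nanotubes lay outside those intervals. Over all genes the 33 calls became 0 when control replicate 1 or 3 or Fura-2 replicate 2 or 3 was left out. They became 57 in the absence of control replicate 2 and 106 in the absence of Fura-2 replicate 1.

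Di2ANEQPEQ also had no called gene of the 9 by edgeR or by the DESeq2 test, where 3.08% of all genes were called by edgeR. At an unadjusted p under 0.05 edgeR gave 3 genes, all at lower levels: Egr2 at -0.24 ± 0.08 (adjusted p = 0.073), Egr3 at -0.18 ± 0.08 (adjusted p = 0.23) and Nab2 at -0.15 ± 0.05 (adjusted p = 0.131). Egr2 was at 13.9, 12.1 and 11.7 CPM, overlapping control. Without Di2ANEQPEQ replicate 1 Egr2 was called at -0.33 (edgeR adjusted p = 0.0237). The 404 calls over all genes became 120 and 165 without control replicate 1 or 3, and 129 and 190 without Di2ANEQPEQ replicate 2 or 3.

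With AAV 1 of 9 genes was called, Apold1, where 5.0% of all genes were called. It was at 16.3, 16.3 and 15.5 CPM, above the 3 control libraries, and rose by 0.36 ± 0.09 on the log2 scale (edgeR adjusted p = 0.0112). The call was lost without AAV replicate 2 (edgeR adjusted p = 0.0526) or control replicate 1 (edgeR adjusted p = 0.0651). Egr2 at 0.17 ± 0.07 (edgeR adjusted p = 0.183) and Nab2 at -0.14 ± 0.05 (edgeR adjusted p = 0.134) did not pass the test. The summed endothelial markers stood at 191 to 203 CPM with AAV, again nearly all Flt1, and their part in the Apold1 result was not tested. The 656 calls over all genes became 177 and 278 without AAV replicate 2 or 3, and 273 and 157 without control replicate 1 or 3. The dyes and AAV share the control libraries with each other and with LPS and the nanotubes, and differences between the dyes were not tested.

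Other immediate early genes gave a context for the 10. Of a list of 39, 36 were tested (Egr4, Ccn1 and Ccn2 were not), and the list was written with earlier results of these libraries known. With LPS 31 were called, 25 higher and 6 lower, with a median log2 fold change of 1.05, where 28.3% of all genes were called. With (GT)6 SWCNT 31 were called, 29 higher and 2 lower, with a median of 1.01, where 20.4% of all genes were called. With COOH SWCNT 30 were called, all higher, with a median of 0.61, where 20.0% of all genes were called. With LPS the genes with the largest changes were Nfkbiz, an atypical NF-kB cofactor, at 5.72 ± 0.05, the growth factor response gene Myc at 3.70 ± 0.14 and the small Maf factor Maff at 2.91 ± 0.06. With (GT)6 SWCNT they were Myc at 1.78 ± 0.17, the MAP kinase phosphatase Dusp1 at 1.71 ± 0.09 and the orphan nuclear receptor Nr4a3 at 1.61 ± 0.26. With COOH SWCNT they were the AP-1 subunit Fosb at 1.44 ± 0.42, Dusp1 at 1.20 ± 0.10 and Nr4a3 at 1.16 ± 0.27. These genes were not particular to 1 treatment: Fosb stood at 1.47 ± 0.43 with LPS and 1.48 ± 0.42 with (GT)6 SWCNT, Nr4a3 at 2.84 ± 0.23 and Dusp1 at 1.28 ± 0.10 with LPS, and Myc at 1.15 ± 0.18 with COOH SWCNT. Fosb and Nr4a3 are scarce, with control means of 0.362 and 1.15 CPM, and the Fosb libraries of COOH SWCNT overlapped control.

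Directly against LPS, 12 genes of the list were called higher and 18 lower with (GT)6 SWCNT (median -0.10), where 21.6% of all genes were called. With COOH SWCNT 8 were called higher and 21 lower (median -0.39), where 37.8% of all genes were called. Nfkbiz was lowest relative to LPS in both, at -5.12 ± 0.05 and -5.21 ± 0.05. Myc stood at -1.92 ± 0.12 and -2.54 ± 0.12. Rgs2, a regulator of G protein signalling, was higher than with LPS by 2.01 ± 0.07 with (GT)6 SWCNT and 1.90 ± 0.07 with COOH SWCNT. Against control it was lower with LPS at -1.74 ± 0.07, and stood at 0.27 ± 0.06 and 0.17 ± 0.06 with the nanotubes. The ERK phosphatase gene Dusp6 was higher than with LPS by 1.80 ± 0.14 and 2.08 ± 0.14. Against control it too was lower with LPS at -2.18 ± 0.14, and stood at -0.38 ± 0.11 with (GT)6 SWCNT and -0.09 ± 0.10 with COOH SWCNT. Between the nanotubes 22 were called higher and 3 lower with (GT)6 SWCNT (median 0.31), where 21.4% of all genes were called.

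With DiBASC2 22 of the 36 were called, 20 of them lower, with a median of -0.22 against 0.00 over all genes, of which 5.47% were called. The AP-1 subunit Fosl1 fell by 0.88 ± 0.13 (edgeR adjusted p = 1.26e-05) and Maff by 0.84 ± 0.07 (edgeR adjusted p = 8.06e-10). Ier5l, a relative of Ier5, rose by 0.73 ± 0.19 (edgeR adjusted p = 0.0178), from 2.22 to 3.67 CPM. With Di2ANEQPEQ 4 were called, where 3.08% of all genes were. All were lower, led by Rgs1 at -0.62 ± 0.08, and the count was 2 without control replicate 3 or Di2ANEQPEQ replicate 2. With AAV 3 were called, where 5.0% of all genes were, and of these Rgs1 at -0.41 ± 0.08 was lower and Fosl2 at 0.21 ± 0.04 and Klf6 at 0.11 ± 0.03 were higher. With Fura-2 edgeR called 0, where it called 0.252% of all genes, with 9 at an unadjusted p under 0.05, and the DESeq2 test called 2.

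Of 19 genes upstream of this class (SRF, its partners, the ERK cascade and CREB), all 19 were tested and the medians were within 0.03 of 0 with LPS and both nanotubes. With LPS 6 were called, 3 higher and 3 lower, where 28.3% of all genes were called. With (GT)6 SWCNT 6 were called, 4 higher and 2 lower, where 20.4% of all genes were, and with COOH SWCNT 5, all higher, where 20.0% of all genes were. Srf, named after its values were seen, was higher by 0.25 ± 0.04 with LPS, 0.71 ± 0.04 with (GT)6 SWCNT and 0.39 ± 0.04 with COOH SWCNT. With DiBASC2 2 of the 19 were called, both lower, with a median of -0.02 over the list, where 5.47% of all genes were called. The count was 1 without control replicate 1, DiBASC2 replicate 2 or DiBASC2 replicate 3. Srf fell by 0.35 ± 0.04 with DiBASC2 (edgeR adjusted p = 5.81e-07). Srf kept its call without any 1 of the 6 libraries.

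Across the 24 libraries Egr2 and Egr3 varied closely with most of the other genes and least closely with Nab1 and Ier3. The log2 CPM of Egr2 correlated with that of Apold1 at r = 0.9747, Ier2 at r = 0.964, Arc at r = 0.935, Ier5 at r = 0.896 and Nab2 at r = 0.893. That of Egr3 correlated with Arc at r = 0.964, Nab2 at r = 0.940, Ier2 at r = 0.894, Apold1 at r = 0.877 and Ier5 at r = 0.721. With Ier3 the values were r = 0.587 for Egr2 and r = 0.272 for Egr3, and with Nab1 r = 0.378 and r = 0.147. These are descriptions over libraries that share group differences, with no p. Among 9493 genes with a mean of at least 5 CPM, those most like Egr3 were Trib1 (r = 0.981), Plau (r = 0.959) and Cd93 (r = 0.951), and those most like Arc were Trib1 (r = 0.947), Nfil3 (r = 0.939) and Cd93 (r = 0.939). For Nab2 they were Plau (r = 0.966), Hbegf (r = 0.947) and Slc20a1 (r = 0.947). For Egr2 they were Plekho2 (r = 0.972), Fosl2 (r = 0.969) and Slc20a1 (r = 0.965), and for Apold1 Plekho2 (r = 0.979), Slc2a1 (r = 0.974) and Lrp10 (r = 0.974).

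In the same search without the members, the genes most like Ier3 were Marcksl1 (r = 0.992), the NF-kB inhibitor gene Nfkbia (r = 0.990) and Acod1 (r = 0.990). Acod1 makes itaconate in activated macrophages. For Ier2 they were Fosl1 (r = 0.954), Fosl2 (r = 0.954), which was also among those of Egr2, and Epha2 (r = 0.952), and for Ier5 Plaur (r = 0.976), Odc1 (r = 0.972) and Plk2 (r = 0.972). Nab1 had weaker likeness to any gene, with Kif5b at r = 0.858, Wdr43 at r = 0.850 and Cdv3 at r = 0.837.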

How the data were processed

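The authors deposited 1 table of raw read counts per gene for 24 libraries of SIM-A9 cells. Per the submitters' processing notes, STAR 2.5.4b and GRCm38.p6 were used. The counting tool, its strand setting and the annotation are not given in the sources used here. Of 54838 versioned Ensembl identifiers, 53947 matched GENCODE mouse names with their version and 54809 without it, and 29 did not match. Groups came from the sample titles. Counts were fitted with edgeR 4.0.16 in R 4.3.3 (TMM scaling, its filter on low counts, quasi-likelihood test, 1 mean per group over all 24 libraries, 16 residual degrees of freedom, common biological coefficient of variation 4.12%). In each of 10 contrasts p-values were adjusted by Benjamini-Hochberg over 13116 genes, and a gene was called under 0.05. CPM are TMM-scaled.

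The members and lists were chosen with earlier results of these data known. The genes named were all 10 members and, for each, the 3 non-member genes with the highest r. Of the other immediate early genes, the 3 called genes with the largest change in each contrast were named. Egr1 neighbours, Srf, the genes overlapping Nab2 and the pairs of genes in the ratios were named after their values were seen. Within groups, each of the 24 library pairs differed beyond counting error, with a chi-square of 2.44 to 19 per degree of freedom. The fit was tested on simulated data. Alternatives were DESeq2 1.42.0 size factors and its test, upper-quartile scaling, no filter or a mean of at least 50 counts, a replicate block, fitting just the 2 groups of a contrast, and leaving out each library. Promoter windows are from RefSeq. The total count per library limits the precision of genes with few reads, such as Egr1.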

Additional observations from a re-analysis of the deposited data

How the results depend on the processing

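The number of the 9 genes called kept within 1.5 times its value under every alternative for LPS, both nanotubes, the direct comparisons, DiBASC2 and Fura-2. For Di2ANEQPEQ the count was 1 in place of 0 in a fit of only the 2 groups (Nab2, edgeR adjusted p = 0.048) and ranged from 0 to 1 without 1 library. For AAV the count of 1 ranged from 0 to 1 without 1 library. The counts without 1 library ranged from 5 to 6 for LPS, 7 to 8 for DiBASC2 and for COOH SWCNT against LPS, and 4 to 7 for (GT)6 SWCNT against COOH SWCNT. They were 8 for each nanotube against control, 7 for (GT)6 SWCNT against LPS and 0 for Fura-2 in every such fit.

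Replicate numbers did not pair the libraries: the deviations of same-numbered libraries correlated at -0.104 to 0.0696. A fit with the replicate block left the count of members at 5 for LPS, 8 for each nanotube, 8 for DiBASC2, 0 for Fura-2 and Di2ANEQPEQ, 1 for AAV, and 7, 8 and 6 in the direct comparisons.

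Of the fold changes of single members under all alternatives, 1124 kept direction and call, 14 lost the call, 5 gained it and 27 turned sign, all of them uncalled and near 0. Upper-quartile scaling gave -0.03 for Nab2 with LPS and -0.01 for Ier2 with AAV. Arc with AAV was 0.00 with DESeq2 size factors, no filter and the DESeq2 test, and Ier2 with AAV was 0.00 at a mean of at least 50 counts and in a fit of only the 2 groups. Without 1 library the sign turned for Nab2 with LPS (range -0.01 to 0.05), for Egr2 (0.00 to 0.10), Nab1 (-0.04 to 0.02), Arc (-0.07 to 0.05), Ier2 (-0.01 to 0.05) and Ier5 (-0.03 to 0.02) with Fura-2, for Nab1 (-0.05 to 0.02), Ier3 (-0.03 to 0.06) and Ier5 (-0.04 to 0.02) with Di2ANEQPEQ, and for Arc (-0.04 to 0.07) and Ier2 (-0.02 to 0.02) with AAV. Over all genes, Fura-2 gave 33 calls, 188 without the filter, 80 in a fit of only the 2 groups and 86 with the DESeq2 test, and Di2ANEQPEQ 404 and 814 in a fit of only the 2 groups. Upper-quartile scaling moved the share of calls that were higher from 33.3% to 54.9% for DiBASC2, from 48.7% to 35.4% for LPS, from 36.7% to 26.3% for AAV, from 44.6% to 57.5% and 47.9% to 62.5% for (GT)6 SWCNT and COOH SWCNT against LPS, and from 55.6% to 44.4% between the nanotubes. The cause was not tested.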

Other observations

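Genes beside Egr1 on the same chromosome were read in these libraries. Within 200 kb of Egr1, chosen after their values were seen, Hspa9 had a mean of 1075 CPM over the 24 libraries, Etf1 459 CPM, Kdm3b 80.2 CPM, Fam53c 58.8 CPM and Cdc25c 18.3 CPM, while Reep2 had 37 counts in all and Gfra3 had 0.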
